A study of Mus musculus with 15 samples.

Results

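The 7 genes described here, *Pou3f1*, *Gpr161*, *Spink8*, *Fibcd1*, *Lefty1*, *Wfs1* and *Mpped1*, mark the pyramidal neurons of hippocampal field CA1. They were chosen by gene symbol and not by a rule on their values, though with earlier results of these data known. Each is the row of the raw count table whose Ensembl identifier carries that symbol in the GENCODE mouse annotation. The table held 55471 gene IDs, of which 16171 passed a filter on low counts (over 1 CPM, the count scaled to library size, in 3 or more libraries), and all 7 genes passed it. RNA came from whole hippocampi of 3-month-old female mice in 15 libraries, with 3 libraries in each of 5 groups. In the first batch were double-mutant (DM) mice, which carry AppNL-G-F/NL-G-F together with Apoe4+/wt, APP-TKI mice, which carry AppNL-G-F/NL-G-F alone, and wild-type (WT) mice. In the second batch were ApoE4 mice, which carry ApoE4+/wt, and separate WT mice. DM mice came from crosses of APP-TKI with ApoE4 mice. The App alleles are homozygous knock-ins of mutations in a humanized amyloid β sequence, and the mice that carry ApoE4 have 1 human APOE4 allele beside 1 mouse Apoe allele. Because the batches were collected and sequenced apart, groups were compared within a batch. The labels number the libraries but do not say that each is 1 animal, so the tests measure only the spread between these libraries.

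CA1 pyramidal neurons are the excitatory output cells of the hippocampus proper. They receive Schaffer collaterals from CA3 and direct input from entorhinal cortex, and they project to the subiculum and beyond. CA1 is affected early in Alzheimer's disease. The marker genes have varied functions: *Pou3f1* encodes a transcription factor of the POU class 3 family, *Gpr161* a ciliary receptor that restrains hedgehog signaling, and *Lefty1* a secreted inhibitor of Nodal. *Wfs1* encodes wolframin, a membrane protein of the endoplasmic reticulum (ER), *Fibcd1* a membrane receptor with a fibrinogen-like domain, *Spink8* a protein of the Kazal-type serine protease inhibitor family, and *Mpped1* a protein with a metallophosphoesterase domain. In RNA from whole tissue, fewer CA1 cells and less RNA per cell cannot be told apart.

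The libraries held between 32754717 and 44630808 counts. Markers of dentate granule cells (summed level 212 to 311 CPM), CA3 (136 to 210 CPM) and CA2 (205 to 276 CPM) were present in every library, as were the 7 CA1 genes (498 to 723 CPM), and no gene of these lists was at 0. Libraries of the second batch differed in the levels of markers of tissue outside the hippocampus. The summed level of striatal markers was 701 CPM in ApoE4 library 3 and 62.7 to 114 CPM in the other 14 libraries. Thalamus and habenula markers summed to 239 CPM in WT library 3 of the second batch and to 32.8 to 86.5 CPM elsewhere. Choroid plexus markers summed to 1917 CPM in ApoE4 library 1 and 1609.5 CPM in the same WT library 3, against 24.4 to 101 CPM in the rest. The main results of the second batch are therefore also given without the third library of both its groups, an alternative chosen after seeing the data. It removes the libraries highest in striatal and in thalamic markers but does not balance the choroid plexus markers. ApoE4 library 1 (1917 CPM) stays in, while WT library 3 (1609.5 CPM) is left out.

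All 7 genes were well measured, with 296 counts (*Lefty1*) to 7730 counts (*Mpped1*) in a single library. Divided by the summed exon length, their median levels in RPKM (CPM per kilobase) over the 15 libraries were 44.4 for *Mpped1*, 33.0 for *Wfs1*, 29.7 for *Fibcd1*, 20.4 for *Spink8*, 16.7 for *Pou3f1*, 12.1 for *Gpr161* and 5.48 for *Lefty1*. Neighbors in this order overlapped in range over libraries except at the low end, where *Gpr161* (9.36 to 15.1 RPKM) lay above *Lefty1* (4.52 to 6.63 RPKM) in all libraries. On GRCm38 the genes lie on 6 chromosomes: *Pou3f1* (ENSMUSG00000090125) at chr4:124656807-124660655 and *Spink8* (ENSMUSG00000050074) at chr9:109812280-109826633 on the plus strand, *Fibcd1* (ENSMUSG00000026841) at chr2:31813290-31846005 and *Wfs1* (ENSMUSG00000039474) at chr5:36966104-36989205 on the minus strand. *Mpped1* (ENSMUSG00000041708) lies at chr15:83779467-83858494 on the plus strand. *Gpr161* (ENSMUSG00000040836, chr1:165295789-165326745) and *Lefty1* (ENSMUSG00000038793, chr1:180935022-180938400) share chromosome 1, both on the plus strand. All are annotated as protein coding, and counts were summed over their exons.

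Promoter windows of 300 bases, 250 before and 50 after a transcription start, were matched in the RefSeq table (GRCm38.p6) for 4 of the 7 genes, *Gpr161*, *Fibcd1*, *Wfs1* and *Mpped1*, and not for *Pou3f1*, *Spink8* and *Lefty1*. The stretches upstream of the start that hold no exon of the gene are shown for 3 of them, because genes whose levels moved together across libraries (below) had start regions of unlike composition. Capitals mark GC boxes (GGGCGG on either strand) and E-boxes (CANNTG).
Fibcd1, chr2:31846006-31846255, minus strand: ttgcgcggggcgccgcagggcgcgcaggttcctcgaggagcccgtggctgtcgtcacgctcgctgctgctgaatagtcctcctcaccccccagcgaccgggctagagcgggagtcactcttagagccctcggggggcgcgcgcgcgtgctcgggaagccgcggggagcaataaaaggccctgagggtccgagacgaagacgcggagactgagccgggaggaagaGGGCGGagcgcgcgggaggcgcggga
Mpped1, first window, chr15:83779773-83779981, plus strand: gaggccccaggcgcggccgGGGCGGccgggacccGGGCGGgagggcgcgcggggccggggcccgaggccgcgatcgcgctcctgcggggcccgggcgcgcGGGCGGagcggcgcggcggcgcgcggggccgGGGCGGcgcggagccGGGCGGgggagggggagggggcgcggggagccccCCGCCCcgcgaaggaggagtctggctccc
Gpr161, second window, chr1:165302373-165302622, plus strand: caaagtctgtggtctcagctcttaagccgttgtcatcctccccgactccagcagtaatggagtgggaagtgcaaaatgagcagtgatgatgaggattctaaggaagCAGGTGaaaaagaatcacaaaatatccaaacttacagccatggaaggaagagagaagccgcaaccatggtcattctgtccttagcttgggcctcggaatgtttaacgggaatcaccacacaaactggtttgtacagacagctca
The windows of *Fibcd1* and *Mpped1* (first of 2) had 74.3% and 89.3% G or C and 46 and 59 CpG dinucleotides, and that of *Wfs1* had 70.0% and 30. Over all 32851 windows in the table the medians were 52.7% and 7. The second windows of *Gpr161* (45.7%, 5 CpG) and *Mpped1* (47.3%, 3 CpG) and the first of *Gpr161* (44.0%, 1 CpG) lay below that median. A GC box, which 35.7% of all windows hold, was found 9 times in the first *Mpped1* window, 4 times in that of *Wfs1* and 2 times in that of *Fibcd1*. An E-box, held by 72.3% of all windows, was found in both *Gpr161* windows, the second *Mpped1* window and the *Wfs1* window. The POU octamer ATGCAAAT (1.74% of all windows), the cAMP response element TGACGTCA (1.79%) and the TATA box TATAAA (13.6%), searched on both strands, had no match in any of the 6 windows. The shorter motif TGACG, which is part of the cAMP response element and occurs in 20.8% of windows, had 1 match, in *Fibcd1*.

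None of the 7 genes passed the threshold (adjusted p under 0.1 over all 16171 genes, edgeR's quasi-likelihood test) in any comparison. In DM mice relative to WT mice 2 genes were higher and 5 lower, with a median log2 fold change of -0.08 against 0.01 for all genes. In the same comparison 0.0124% of all genes passed (2 genes, *Mid1* and *Col8a2*, and 11 genes with the replicate number as a block), and 0 of the 7 markers had an unadjusted p under 0.05 against a background of 4.55%. The groups did not overlap for 0 of the 7, against 10.4% of all genes. Set beside the WT library of the same number, however, *Pou3f1*, *Gpr161*, *Spink8*, *Fibcd1* and *Lefty1* were lower in DM mice in all 3 pairs, 5 of the 7 genes against 15.2% of all genes, though by a small margin (*Fibcd1* had 143, 138 and 152 CPM in DM mice, against 148, 141 and 158 CPM in WT mice). These 5 genes also varied together between libraries, and none passed when the fit took the number as a block (edgeR's quasi-likelihood test, lowest adjusted p of the 7 = 0.898). In APP-TKI mice relative to WT mice all 7 were lower, with a median of -0.13 against 0.01 for all genes. There 0.00618% of genes passed (*Mid1*), 1 of the 7 (*Pou3f1*) had an unadjusted p under 0.05 against 3.56%, and 1 of the 7 (again *Pou3f1*) did not overlap against 8.27%. Relative to APP-TKI mice, all 7 were higher in DM mice, with a median of 0.05 against 0.0012 for all genes. There 0 of the 7 had an unadjusted p under 0.05 against 3.78%, and 0 did not overlap against 7.93%. In that comparison 0% of genes passed. These directions rested on few libraries: without WT library 3 of the first batch 5 of the 7 were lower in APP-TKI than in WT mice, and without either APP-TKI library 1 or DM library 3, 4 of the 7 were higher in DM than in APP-TKI mice. The 3 comparisons of the first batch also share libraries, so their directions are not independent. In ApoE4 mice relative to WT mice 3 were higher and 4 lower, with a median of -0.05 against -0.01. The sign of this median was not stable: it was 0.08 without WT library 1 of the second batch, 0.05 without ApoE4 library 3, -0.17 without WT library 3 and -0.11 without the third library of both groups. In the full comparison 0% of genes passed, 1 of the 7 (*Wfs1*) had an unadjusted p under 0.05 against 5.99%, and 1 (*Wfs1*) did not overlap against 12.2%. By the robust likelihood ratio test the 4 comparisons called 136, 50, 53 and 125 genes in this order, and by DESeq2 50, 25, 18 and 48. Of the 7 markers only *Wfs1* was among them, in ApoE4 mice by the likelihood ratio test.

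The 95% intervals limit what could have gone undetected. For DM relative to WT mice the intervals of all 7 genes lay between -0.38 and 0.39 on the log2 scale, and for DM relative to APP-TKI mice between -0.23 and 0.44. For APP-TKI relative to WT mice they lay between -0.52 and 0.21. In the second batch they were wider, between -0.69 and 0.47.

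**Figure D1:**
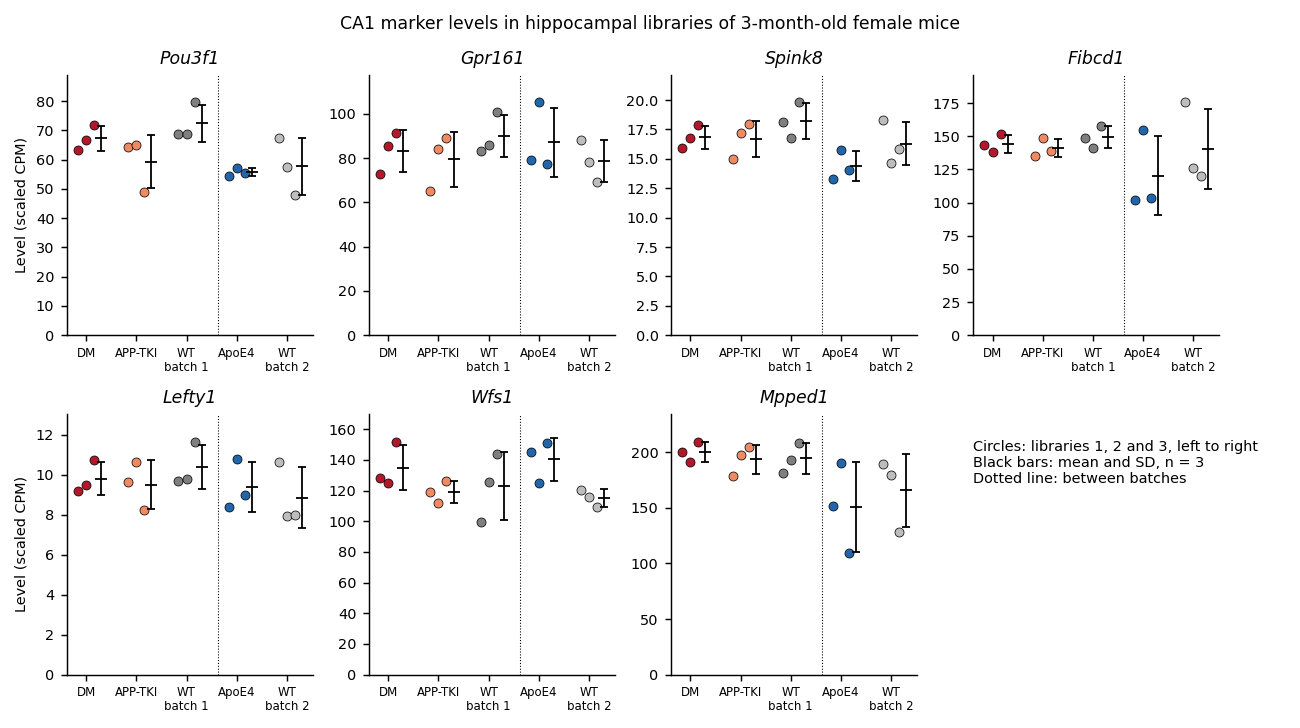
Scaled CPM of each of the 7 CA1 genes in every library, on linear axes that start at 0. Circles are libraries 1 to 3 of a group, black bars are the mean and SD (n = 3), and the dotted line separates the batches. *Pou3f1* in APP-TKI mice (48.8 to 64.9 CPM) lay below WT mice (68.6 to 79.5 CPM), and *Wfs1* in ApoE4 mice (125 to 151 CPM) lay above WT mice (109 to 121 CPM).

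**Figure D2:**
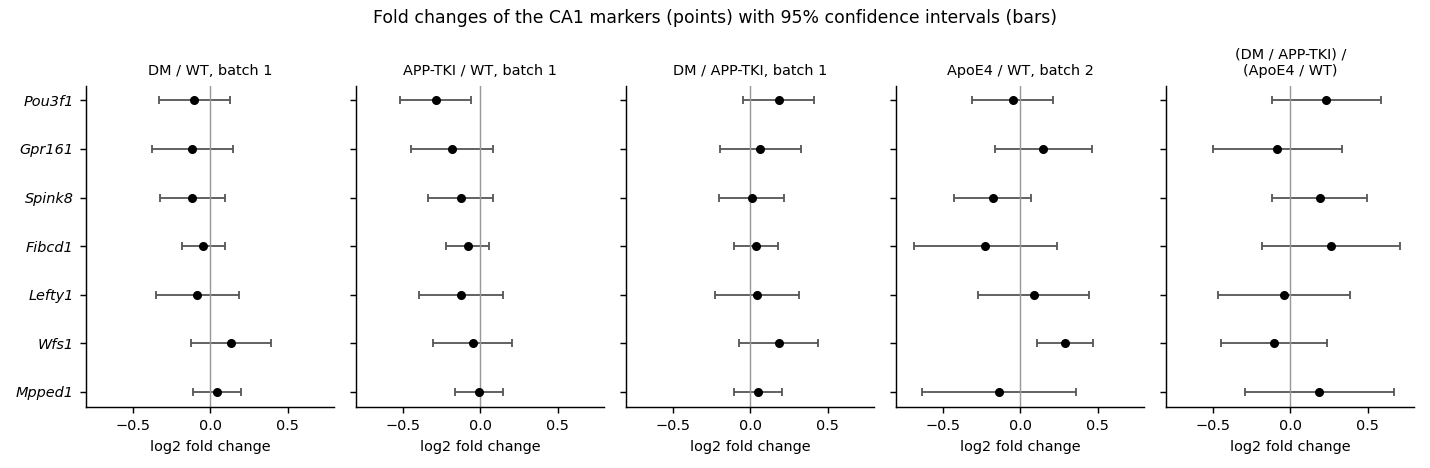
Log2 fold change of the 7 genes (points) with 95% intervals (bars) from edgeR, in 1 panel for each comparison and 1 for the difference of the APOE4 effects. The intervals of *Pou3f1* in APP-TKI relative to WT mice (-0.52 to -0.06) and *Wfs1* in ApoE4 relative to WT mice (0.11 to 0.47) lie to 1 side of 0 and all others cross it, and neither gene passed after adjustment over all genes.

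*Pou3f1* had the most negative fold change of the set in APP-TKI mice relative to WT mice. It had 64.3, 64.9 and 48.8 CPM in APP-TKI mice, against 68.6, 68.9 and 79.5 CPM in WT mice. Every APP-TKI library lay below every WT library, although the gap between the nearest libraries was small. The log2 fold change was -0.29 (SE 0.11), which did not pass (adjusted p = 1.00, edgeR's quasi-likelihood test). Without APP-TKI library 3, the lowest of the batch, it was -0.16. In DM mice *Pou3f1* had 63.5, 66.7 and 71.9 CPM, which overlapped with both other groups of the batch. In the second batch it had 54.5, 57.1 and 55.6 CPM in ApoE4 mice, against 67.5, 57.5 and 48.0 CPM in WT mice. The ApoE4 libraries lay within the WT range. The other class 3 POU genes, which act in neural development and upper-layer cortical neurons, were *Pou3f2*, *Pou3f3* and *Pou3f4*. With *Pou3f1* all 4 were lower in APP-TKI than in WT mice and all 4 were lower in DM than in WT mice, and none passed. In APP-TKI mice 2 were higher and 2 lower without APP-TKI library 3, and 1 was higher and 3 lower without WT library 3. *Pou3f3*, the most abundant, had 161, 173 and 145 CPM in APP-TKI mice, against 166, 176 and 195 CPM in WT mice (log2 fold change -0.17, SE 0.08). Both *Pou3f1* and *Pou3f3* were lowest in APP-TKI library 3 and highest in WT library 3. After centering on the group mean, *Pou3f1* and the mean of the other 3 class 3 genes had a Pearson r of 0.96 (Spearman rho 0.87) over the 9 libraries of the first batch and -0.27 over the 6 of the second.

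*Gpr161*, which keeps hedgehog target genes off by way of cAMP in the cilium, had 72.6, 85.5 and 91.2 CPM in DM mice and 65.1, 84.0 and 89.0 CPM in APP-TKI mice, against 83.1, 86.0 and 101 CPM in WT mice. The 3 groups overlapped. The log2 fold change was -0.12 (SE 0.12) in DM and -0.18 (SE 0.12) in APP-TKI mice relative to WT mice. It had 78.9, 105 and 77.5 CPM in ApoE4 mice, against 88.2, 78.3 and 69.3 CPM in WT mice (0.15, SE 0.13). ApoE4 library 2 stood above all others, and without it the fold change was -0.0065. Of the 12 tested hedgehog pathway genes, *Gpr161* included, 9 were higher and 3 lower in DM than in WT mice, 6 and 6 in APP-TKI than in WT mice, 9 and 3 in DM than in APP-TKI mice, and 7 and 5 in ApoE4 than in WT mice. The first count depended on the scaling, with 7 and 5 under TMM and 6 and 6 under median-of-ratios scaling. None of the 12 passed, and none had an unadjusted p under 0.05 in any of these comparisons. Across the 15 libraries, centered on their batch mean, *Gpr161* and the mean of the other 11 had an r of -0.58 (rho -0.49), and r was -0.72 without the 2 libraries farthest from the median. This was not a feature of *Gpr161* alone: the mean of all 7 CA1 genes had an r of -0.66 (rho -0.60) with the same 11 genes.

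*Lefty1*, the least abundant of the 7, had 9.18, 9.50 and 10.7 CPM in DM mice and 9.64, 10.7 and 8.22 CPM in APP-TKI mice, against 9.70, 9.77 and 11.7 CPM in WT mice. In ApoE4 mice it had 8.40, 10.8 and 9.003 CPM, against 10.6, 7.95 and 7.99 CPM in WT mice. The groups overlapped in both batches, with log2 fold changes of -0.08 (SE 0.12) in DM, -0.13 (SE 0.12) in APP-TKI and 0.09 (SE 0.15) in ApoE4 mice relative to their WT mice. Of 13 genes of the Nodal and activin pathway 10 were tested. In DM mice, APP-TKI mice and ApoE4 mice relative to their WT mice 5 were higher and 5 lower each, and none passed. Under TMM and median-of-ratios scaling the count in DM mice was 4 and 6. The activin receptor gene *Acvr2a* had a log2 fold change of 0.19 (SE 0.08) in DM and 0.17 (SE 0.08) in APP-TKI mice relative to WT mice. *Lefty2*, the close relative of *Lefty1*, was near the detection limit, with 1.61 ± 0.371 CPM in DM mice and 1.38 ± 0.0514 CPM in APP-TKI mice, against 1.16 ± 0.0905 CPM in WT mice (SD, n = 3 each). How reads shared by such related genes were counted was not stated.

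*Wfs1* had the largest deviation of the 7 genes in ApoE4 mice. It had 145, 125 and 151 CPM in ApoE4 mice, against 121, 115 and 109 CPM in WT mice. Every ApoE4 library lay above every WT library. The log2 fold change was 0.29 (SE 0.08), and it did not pass over all genes (adjusted p = 0.761, edgeR's quasi-likelihood test). Adjusted p was 0.0393 by edgeR's robust likelihood ratio test and 0.165 by DESeq2, and over all alternatives it ranged from 0.0393 to 0.997. Without ApoE4 library 3, which held the striatal markers, the fold change was 0.23, and without the third library of both groups it was 0.19. In the first batch *Wfs1* had 128, 125 and 152 CPM in DM mice and 119, 112 and 126 CPM in APP-TKI mice, against 99.8, 125 and 144 CPM in WT mice. The groups overlapped, and the WT libraries spread the most. The fold change was 0.18 (SE 0.12) in DM relative to APP-TKI mice and 0.13 (SE 0.12) in DM relative to WT mice, which became 0.0050 without WT library 1.

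Because wolframin acts in the ER, *Wfs1* was set beside 11 further genes of ER stress and protein quality control: the sensors *Atf6*, *Atf6b*, *Ern1* and *Eif2ak3*, the transcription factors *Xbp1* and *Ddit3*, the chaperones *Hspa5* and *Hsp90b1*, the degradation factors *Sel1l* and *Syvn1*, and *Cisd2*, the second Wolfram syndrome gene. In ApoE4 mice relative to WT mice all 12 were higher, with a median log2 fold change of 0.08 against -0.01 for all genes, 0 of 12 passed, and 4 of 12 had an unadjusted p under 0.05 against 5.99% of all genes. Of all genes 7415 of 16171 were higher. The list was drawn up around *Wfs1*, which counts among the 12 and among the 4, with earlier results of these data known. The others of the 4 were *Hspa5*, *Xbp1* and *Syvn1*. *Hspa5*, the ER chaperone BiP, had 329, 325 and 309.7 CPM in ApoE4 mice, against 228, 248 and 269.8 CPM in WT mice. Its groups did not overlap, and its log2 fold change was 0.37 (SE 0.07) with an adjusted p of 0.669 by edgeR's quasi-likelihood test, 0.000341 by the robust likelihood ratio test and 0.000388 by DESeq2. *Xbp1* had 77.1, 78.5 and 74.3 CPM in ApoE4 mice, against 57.8, 67.6 and 70.6 CPM in WT mice (0.23, SE 0.08). *Syvn1*, an ER ubiquitin ligase, had 40.6, 38.5 and 42.5 CPM in ApoE4 mice, against 36.9, 35.9 and 37.3 CPM in WT mice (0.14, SE 0.05). In both, the ApoE4 libraries lay above the WT libraries. Of all genes 12.2% did not overlap in this comparison. The count of higher genes was 12 under every scaling tried, 10 to 12 when 1 library was left out and 11 without the third library of both groups. The choroid plexus and striatal markers named above differed between these libraries too, and their part in the result was not tested.

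The 12 ER genes did not lie to 1 side in the other comparisons that involve APOE4. Relative to APP-TKI mice 8 were higher and 4 lower in DM mice (median 0.03), and relative to WT mice 7 were higher and 5 lower. Under TMM and median-of-ratios scaling the count relative to WT mice was 5 and 7. In APP-TKI mice 1 was higher and 11 were lower relative to WT mice (median -0.04). This count was 4 and 8 without WT library 1 and also without APP-TKI library 1. None passed. *Hspa5* had 175, 209.8 and 255 CPM in DM mice and 175, 186 and 232 CPM in APP-TKI mice, against 178, 203 and 238 CPM in WT mice. These 3 groups spanned almost the same range. Over the 15 libraries, centered on their batch mean, *Wfs1* and the mean of the other 11 ER genes had an r of 0.60 (rho 0.64; 0.46 in the first and 0.78 in the second batch), and 1.55% of tested genes had a higher r with that mean (14.9% within the first batch and 4.63% within the second). Centered on the group mean, r was 0.29 (0.44 in the first and 0.03 in the second batch), and 23.3% of tested genes had a higher r (20.0% and 52.4% within the batches).

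**Figure D3:**
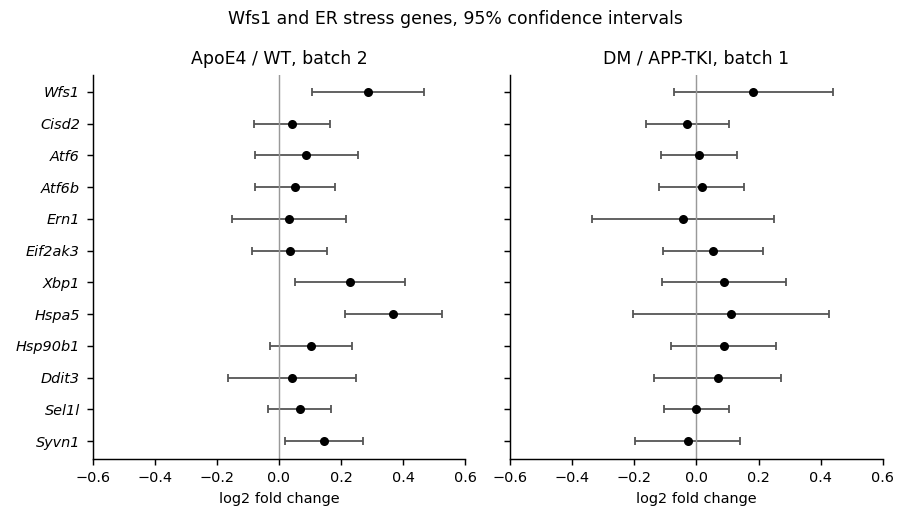
Log2 fold change of *Wfs1* and the 11 further ER genes (points) with 95% intervals (bars) from edgeR, for ApoE4 relative to WT mice on the left and DM relative to APP-TKI mice on the right. On the left all 12 points lie above 0 and the intervals of *Wfs1*, *Xbp1*, *Hspa5* and *Syvn1* do not cross it. On the right 8 points are above 0 and all 12 intervals cross it.

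*Fibcd1*, *Spink8* and *Mpped1* differed little between groups of the first batch. *Fibcd1* had 143, 138 and 152 CPM in DM mice and 135, 148 and 139 CPM in APP-TKI mice, against 148, 141 and 158 CPM in WT mice. *Spink8* had 15.9, 16.7 and 17.9 CPM in DM mice and 15.004, 17.2 and 17.9 CPM in APP-TKI mice, against 18.1, 16.7 and 19.8 CPM in WT mice. *Mpped1* had 200.4, 192 and 209.6 CPM in DM mice and 179, 197 and 205 CPM in APP-TKI mice, against 181, 194 and 209 CPM in WT mice. All 3 genes overlapped between all groups. In DM relative to WT mice their log2 fold changes were -0.05 (SE 0.06), -0.12 (SE 0.10) and 0.04 (SE 0.07). *Fibcd1* and *Mpped1* had the smallest spread of the 7 here. In DM and APP-TKI relative to WT mice their 95% intervals lay between -0.22 and 0.20.

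*Fibcd1* and *Mpped1* were instead the most variable of the 7 in the second batch. *Fibcd1* had 102, 154 and 104 CPM in ApoE4 mice, against 176, 126 and 120.0 CPM in WT mice. *Mpped1* had 152, 191 and 109.8 CPM in ApoE4 mice, against 189.5, 179 and 128 CPM in WT mice. The libraries of each group lay far apart, and the groups overlapped. *Spink8* had 13.3, 15.8 and 14.0 CPM in ApoE4 mice, against 18.3, 14.7 and 15.8 CPM in WT mice, also with overlap. The log2 fold changes were -0.23 (SE 0.20) for *Fibcd1*, -0.14 (SE 0.21) for *Mpped1* and -0.18 (SE 0.11) for *Spink8*. The SD within groups on the log2 scale was 0.32 for *Fibcd1* and 0.36 for *Mpped1* in the second batch, above 87.4% and 89.7% of tested genes, against 0.07 and 0.09 in the first batch, above 17.5% and 28.4%. The median gene had 0.11 in the second and 0.13 in the first batch. *Wfs1* ran the other way, with 0.12 in the second and 0.18 in the first batch. *Mpped1* was lowest in ApoE4 library 3 and WT library 3, the libraries with striatal and with thalamic markers, and without ApoE4 library 3 its fold change was 0.05. *Mpped2*, a brain-expressed relative of *Mpped1*, averaged 28.0 CPM in DM mice and 28.6 CPM in APP-TKI mice, against 28.5 CPM in WT mice.

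The APOE4 effect was also compared between mice with and without the App mutations, as the difference of DM relative to APP-TKI mice and ApoE4 relative to WT mice. On the log2 scale this difference was positive for 4 genes and negative for 3, with a median of 0.19 against 0.01 for all genes. The estimates ran from -0.10 (SE 0.16) for *Wfs1* and -0.08 (SE 0.20) for *Gpr161* to 0.23 (SE 0.17) for *Pou3f1* and 0.26 (SE 0.21) for *Fibcd1*. None of the 7 passed (lowest adjusted p = 0.784, edgeR's quasi-likelihood test), 0 had an unadjusted p under 0.05 against a background of 6.85%, and 0% of all genes passed. So the higher *Wfs1* level in ApoE4 mice was not shown to differ from that in DM relative to APP-TKI mice. The intervals lay between -0.50 and 0.71. The median was 0.0042 without ApoE4 library 3 and 0.16 without the third library of both groups of the second batch.

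Differences between single libraries ran through several of the genes at once. In the first batch WT library 3 was the highest of 9 for *Pou3f1*, *Gpr161*, *Spink8*, *Fibcd1* and *Lefty1* and above the batch mean for all 7. DM library 3 was the highest for *Wfs1* and *Mpped1* and also above the mean for all 7. APP-TKI library 1 was the lowest for *Gpr161*, *Spink8*, *Fibcd1* and *Mpped1* and above the mean for 0. In the second batch WT library 1 was the highest for *Pou3f1*, *Spink8* and *Fibcd1*, and ApoE4 library 2 for *Gpr161*, *Lefty1* and *Mpped1*. The mean of the 7 genes, centered on the batch, was 0.22 and 0.18 on the log2 scale in these libraries and -0.17 in WT library 3 of the second batch. High and low libraries thus occurred within the same group.

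**Figure D4:**
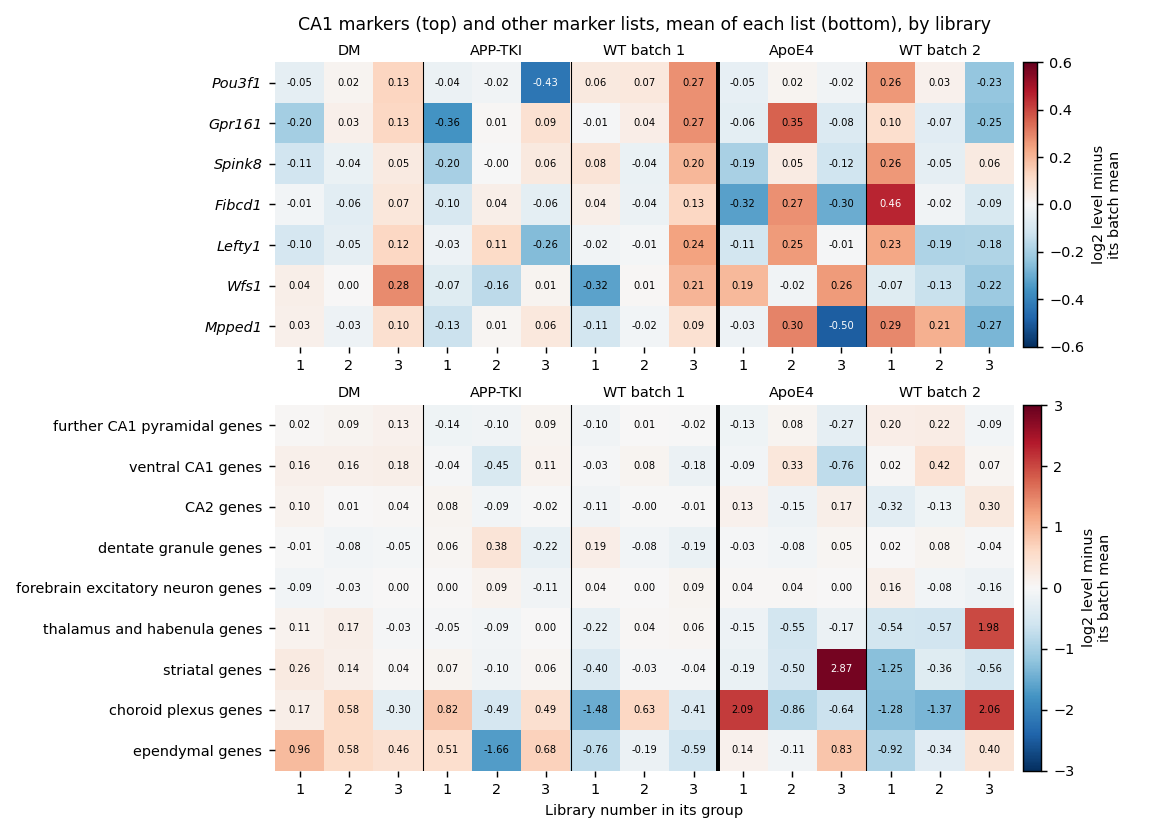
Log2 level of each of the 7 genes (top) and mean of other marker lists (bottom) minus the mean over the batch, for every library, with red high and blue low and a wider color scale at the bottom. WT library 3 and DM library 3 of the first batch are above the batch mean for all 7 genes and APP-TKI library 1 for 0 of them, and striatal genes stand at 2.87 in ApoE4 library 3.

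Most of the genes varied together across libraries, and *Wfs1* stood apart from them over all libraries and in the second batch, but less so in the first. After each library was centered on its group mean, the 15 pairs among *Pou3f1*, *Gpr161*, *Spink8*, *Fibcd1*, *Lefty1* and *Mpped1* had Pearson r values from 0.26 to 0.84 over the 15 libraries, with a median of 0.66. The 6 pairs with *Wfs1* had values from -0.08 to 0.26, with a median of 0.17. Of all pairs of tested genes 90% lay between -0.63 and 0.65, and 8 of the 15 pairs and 0 of the 6 were above that range. The strongest pairs were *Gpr161* with *Spink8* (r 0.84, rho 0.82) and *Pou3f1* with *Lefty1* (r 0.83, rho 0.83). Within the first batch the median was 0.59 for the 15 pairs and 0.40 for the 6 with *Wfs1*, and within the second 0.75 and -0.33. With fewer libraries the range of 90% of all gene pairs was wider. It was -0.78 to 0.79 in the first batch, with 3 of the 15 and 0 of the 6 above. It was -0.82 to 0.82 in the second, with 6 of the 15 and 0 of the 6 above. In the second batch all 15 pairs were positive and 1 of the 6 was. In the first batch all 6 pairs with *Wfs1* were positive, up to 0.76 with *Mpped1*, and 12 of the other 15 were, since *Pou3f1* was near 0 with *Gpr161*, *Spink8* and *Mpped1* (-0.02, -0.0083 and -0.03). Centered on the batch mean, which keeps differences between groups, the medians were 0.56 and 0.06. These values describe the libraries, in which all genes share 1 sequencing depth, and carry no test.

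**Figure D5:**
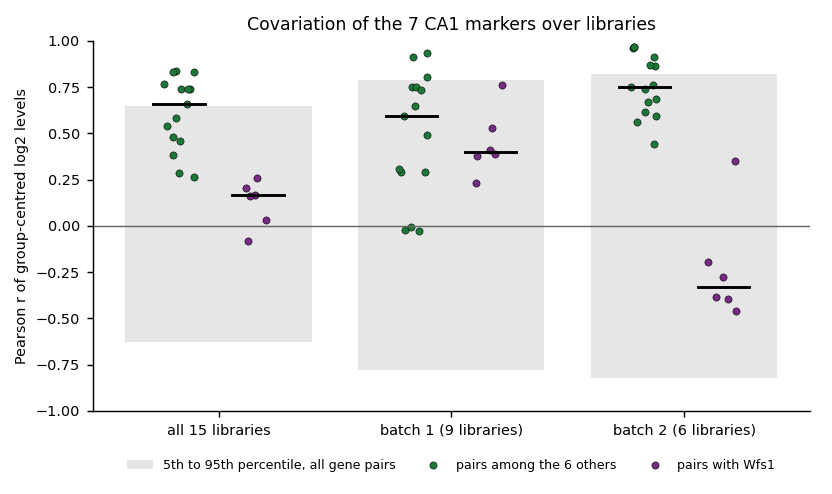
Pearson r of log2 levels centered on the group mean, for pairs among 6 of the genes (green) and pairs with *Wfs1* (purple), over all 15 libraries and within each batch. Black bars are medians and gray areas the range of 90% of all gene pairs. In the second batch the median is 0.75 for the 15 pairs without *Wfs1* and -0.33 for the 6 pairs with it.

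The genes outside the set whose centered level was most like the mean of the 7 were *Hpcal4* (r 0.90, rho 0.81, 15 libraries centered on the batch), *Sh3rf1* (0.88), *Stum* (0.88), *6330403L08Rik* (0.87) and *Rasl11b* (0.85). Without the 2 libraries farthest from the median, r for *Hpcal4*, a neuronal calcium sensor gene, was 0.85. Centered on the group mean, the first 4 were again the highest, with 0.95, 0.94, 0.91 and 0.91, followed by *Sertm1* (0.91). For single genes, centered on the batch mean, the most similar was *Nrgn* for *Pou3f1* (r 0.92), *Rab8b* for *Gpr161* (0.94), *Ociad2* for *Spink8* (0.91), *Itga4* for *Fibcd1* (0.93), *Adra1d* for *Lefty1* (0.90), *Zbtb7a* for *Wfs1* (0.85) and *Vxn* for *Mpped1* (0.94). On the group mean, *Nrgn*, *Rab8b* and *Itga4* kept their places. *Spink8* was then most like *Gpd1* (0.87), *Lefty1* like *Rprml* (0.94), *Wfs1* like *Tatdn2* (0.89) and *Mpped1* like *Arnt2* (0.95). *Nrgn* encodes neurogranin, a postsynaptic calmodulin-binding protein of excitatory neurons. These genes were picked as the highest of 16171, and the values are given as descriptions. Of all genes, 4.55% had an r above 0.5 with the mean of the 7, centered on the batch mean.

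The mean of the 7 genes moved with some other marker lists. Over the 15 libraries, centered on the batch, r was 0.68 (rho 0.67) with 4 general genes of forebrain excitatory neurons and 0.55 (rho 0.58) with 5 further CA1 genes. Within the first and second batch r was 0.53 and 0.78 with the forebrain genes and 0.33 and 0.67 with the further CA1 genes. With 6 genes of ventral CA1, listed below, r was 0.20 (-0.16 in the first and 0.39 in the second batch). It was -0.69 (rho -0.70) with 6 CA2 genes, but this rested on the second batch (-0.92), and r was -0.13 in the first. With choroid plexus genes it was -0.55 (-0.37 in the first and -0.64 in the second batch), and with 6 dentate granule genes -0.20. Libraries high in the 7 genes thus tended to be high in forebrain excitatory neuron genes (r 0.46 without the 2 libraries farthest from the median). In the second batch they also tended to be low in CA2 and choroid plexus genes, but not only in these. There r was -0.78 with ependymal, -0.71 with subiculum, -0.64 with fibroblast and -0.63 with thalamus and habenula genes. In the first batch these values were -0.30, 0.48, 0.0095 and 0.15. Pan-neuronal (0.60), endothelial (0.41) and microglia genes (0.34) went the other way in the second batch. The part of these other tissues in the pattern was not tested.

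Further CA1 genes were taken from a list of 5: *Man1a*, *Ndst4*, *Ccn3*, *Calb1* and *Neurod6*. None passed by edgeR's quasi-likelihood test on the filtered genes in any comparison. Without the filter on low counts, 1 of the 5 passed by that test in DM relative to APP-TKI mice. By the robust likelihood ratio test 2 of the 5 passed in DM relative to APP-TKI mice (*Ndst4*, adjusted p = 0.0742, and *Ccn3*, 0.0131) and 1 in ApoE4 relative to WT mice (*Ndst4*, 0.0145), and by DESeq2 0 did in these comparisons. In DM mice 4 were higher and 1 lower relative to WT mice (median 0.16), and 4 were higher and 1 lower relative to APP-TKI mice (median 0.05). In APP-TKI mice 1 was higher and 4 lower relative to WT mice (median -0.01), and in ApoE4 mice 1 was higher and 4 lower (median -0.10, and -0.16 with all 5 lower without the third library of both groups). *Ccn3* had 146, 153 and 150 CPM in DM mice and 110, 104 and 154 CPM in APP-TKI mice, so these groups overlapped. *Ndst4*, an enzyme that modifies heparan sulfate chains, had 47.9, 48.5 and 49.8 CPM in DM mice and 37.4, 36.2 and 42.8 CPM in APP-TKI mice, against 38.3, 45.2 and 38.7 CPM in WT mice. It had 28.5, 32.8 and 29.1 CPM in ApoE4 mice, against 38.8, 42.7 and 35.4 CPM in WT mice. DM libraries lay above all others of their batch, and ApoE4 libraries below the WT libraries of theirs. Of all genes 7.93% did not overlap between DM and APP-TKI mice, 10.4% between DM and WT mice and 12.2% between ApoE4 and WT mice. The log2 fold change was 0.33 (SE 0.08) in DM relative to APP-TKI mice and -0.37 (SE 0.09) in ApoE4 relative to WT mice. The difference between them was 0.70 (SE 0.12, 95% interval 0.44 to 0.97), with an adjusted p of 0.385 by edgeR's quasi-likelihood test, 0.000202 by the robust likelihood ratio test and 0.00520 by DESeq2. It was 0.63 to 0.78 when 1 library was left out and 0.74 without the third library of both groups of the second batch. Over all genes up to 393 passed for this difference, depending on the alternative.

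Genes of ventral CA1, the pole of the field nearest the amygdala, had medians of the same signs. The list held *Dcn*, *Grp*, *Gpc3*, *Htr2c*, *Etv1* and *Col5a1*. Relative to APP-TKI mice 5 of the 6 were higher in DM mice (median 0.28), among them *Gpc3* (0.51, SE 0.20), a cell surface proteoglycan, and *Etv1* (0.29, SE 0.10), a transcription factor. Relative to WT mice 5 of the 6 were higher in DM mice (median 0.19), and 5 of the 6 were lower in both APP-TKI mice (median -0.10) and ApoE4 mice (median -0.31). None passed by edgeR's quasi-likelihood test on the filtered genes. Without the filter on low counts, 1 of the 6 passed by that test in DM relative to WT mice and 1 in DM relative to APP-TKI mice. By the robust likelihood ratio test 2 of the 6 passed in DM relative to APP-TKI mice and 1 in ApoE4 relative to WT mice, and by DESeq2 0 did. The list was lowest of the second batch in ApoE4 library 3, where *Grp* had 3.11 CPM against 19.8 CPM in ApoE4 library 2, and without ApoE4 library 3 the median was -0.06 with 2 genes higher and 4 lower, and -0.12 without the third library of both groups. In the first batch, without APP-TKI library 2, where *Dcn* had 27.6 CPM against 70.0 CPM in APP-TKI library 3, the median of DM relative to APP-TKI mice was 0.15, and that of APP-TKI relative to WT mice turned to 0.13 with 4 genes higher and 2 lower. Without WT library 2 the median of APP-TKI relative to WT mice was 0.02. *Dcn* and *Col5a1* are also expressed by fibroblasts, and *Htr2c* by choroid plexus. Fibroblast and endothelial markers differed in the same direction: 5 of 5 of each were higher in DM mice than in APP-TKI mice (medians 0.50 and 0.62) and than in WT mice (0.45 and 0.45). None passed by edgeR's quasi-likelihood test. Relative to APP-TKI mice 2 of 5 fibroblast and 5 of 5 endothelial genes had an unadjusted p under 0.05 by that test, against 3.78% of all genes. Relative to WT mice 2 of 5 fibroblast and 4 of 5 endothelial genes did, against 4.55%. The fibroblast markers summed to 426 to 503 CPM in DM mice and 253 to 360.4 CPM in APP-TKI mice, against 220.2 to 323 CPM in WT mice. The endothelial markers summed to 35.5 to 50.3 CPM in DM mice and 25.4 to 29.8 CPM in APP-TKI mice, against 29.7 to 30.8 CPM in WT mice. No gene of either list was at 0, and the part of these cells in the ventral CA1 result was not tested.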

How the data were processed

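The authors deposited raw counts per gene, 1 table for 15 libraries. Per the labels, the paper's methods and the submitters' processing notes, polyA-selected directional libraries were read as 150-base pairs, trimmed (Trimmomatic 0.39), aligned (STAR 2.7.1a) to a GRCm38 reference extended by human APOE, and assigned to genes (HTSeq 0.11.2), with human and mouse APOE combined. Whether HTSeq used strand was not stated, so overlapping and antisense genes may share reads. Symbols came from the GENCODE M21 annotation for 55230 of 55471 gene IDs; 241 had no match.

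From the counts, edgeR 4.0.16 (R 4.3.3) fitted each batch separately (9 and 6 libraries) with upper-quartile scaling and the quasi-likelihood test, on the 16171 genes that exceeded 1 CPM in 3 or more libraries. P-values were adjusted by Benjamini-Hochberg over all tested genes, and a gene passed at an adjusted p under 0.1. One fit of all 15 libraries gave the difference of the APOE4 effects. Levels are scaled CPM, and correlations used log2 CPM with a prior count of 1. Counting error is small at 32754717 to 44630808 counts per library; 3 libraries per group limit precision, and an exact permutation test of 3 against 3 cannot give a p below 0.1. Alternatives were edgeR's robust likelihood ratio test, DESeq2 1.42.0, TMM and median-of-ratios scaling, other filters, fits on only the groups compared or on all libraries, a replicate block and leaving out each library. A threshold of adjusted p under 0.05 and leaving out the third library of both groups of the second batch were also tried. Libraries of the same number deviated together in DM and WT mice (correlation across genes 0.446, 0.194 and 0.300), although the labels do not say what the numbers share; in the other comparisons not every correlation was above 0.1.

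Named genes were the 7 markers, all genes of the further CA1, ventral CA1 and paralog lists, at most 3 genes with the smallest p from other lists, and the genes most like the markers across libraries; *Mid1* and *Col8a2* were named after their values were seen. One gene of the further CA1 list is not reported here and was left out of its counts. Members and lists were chosen with earlier results of these data known. The scripts were tested on simulated data. Figures used matplotlib 3.10.9.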

Additional observations from a re-analysis of the deposited data

How the results depend on the processing

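The 27 alternatives included a stricter threshold (adjusted p under 0.05), which gave no new values of single genes. Over the others, 653 of 679 values of the 7 genes kept their sign and their side of the threshold. Of the rest, 25 had the other sign, 24 of them with 1 library left out, and 1 passed only there: with the robust likelihood ratio test 1 of the 7 genes (*Wfs1*) passed in ApoE4 relative to WT mice. With 1 library left out, log2 fold changes that changed sign ranged as follows. In DM relative to WT mice *Lefty1* ranged from -0.15 to 0.010 and *Mpped1* from -0.0027 to 0.098, and in APP-TKI relative to WT mice *Wfs1* ranged from -0.18 to 0.079 and *Mpped1* from -0.053 to 0.048. In DM relative to APP-TKI mice the range was -0.057 to 0.16 for *Gpr161*, -0.061 to 0.064 for *Spink8*, -0.051 to 0.13 for *Lefty1* and -0.0029 to 0.091 for *Mpped1*. In ApoE4 relative to WT mice it was -0.17 to 0.080 for *Pou3f1*, -0.0065 to 0.24 for *Gpr161*, -0.025 to 0.24 for *Lefty1* and -0.34 to 0.046 for *Mpped1*. The difference of the APOE4 effects ranged from -0.21 to 0.072 for *Gpr161* and -0.19 to 0.070 for *Lefty1*, which was 0.0019 without the third library of both groups of the second batch, and its median over the 7 genes from 0.0042 to 0.25. The cause was not tested.

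Counts over all genes depended on the test. For DM relative to WT mice 2 genes passed, against 136 with the robust likelihood ratio test, 50 with DESeq2 and 11 with the replicate block; for APP-TKI relative to WT mice 1 passed, against 50, 25 and 9; for DM relative to APP-TKI mice 0, against 53, 18 and 1; and for ApoE4 relative to WT mice 0, against 125, 48 and 0. Over all alternatives the highest counts were 179, 83, 109 and 125 in this order, and 393 for the difference of the APOE4 effects. With the replicate block 0 of the 7 genes passed in any comparison, and their medians were -0.08, -0.12, 0.05 and -0.04 in this order. Every library held 296 or more counts of each of the 7 genes, so the 3 libraries per group limited precision more than depth did.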
